A study of Mus musculus with 40 samples.

Results

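The 10 genes described here encode the MYC, MAX and MXD network of transcription factors: Myc, Mycn and Mycl, their partner Max, the 4 MXD genes Mxd1, Mxd3, Mxd4 and Mxi1, and the MAX partners Mnt and Mga. They are defined by gene name, not by a measured value, and all 10 had a row among the 53465 gene rows of an RNA-seq count table from mouse bladder urothelial cells grown as organoids. The libraries form 4 groups of 2: cells labelled Kmt2c and Kmt2d double knockout (dKO) given MI-503, dKO cells given DMSO, wild type (WT) cells given MI-503, and WT cells given DMSO. Kmt2c and Kmt2d encode histone H3K4 methyltransferases that act mainly at enhancers, and the compound MI-503 blocks the binding of menin to the methyltransferase KMT2A. The drug was used at 1 µM for 4 days, DMSO is its solvent, and all groups grew in one organoid medium with EGF, R-spondin and Noggin. The labels do not say how the knockout was made, how many lines or clones it covers or whether replicates were separate cultures, so p-values measure only the spread between these libraries, which may be technical. Of 40 samples in all, 32 from other assays were not analysed here.

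MYC proteins work as pairs with MAX: a MYC-MAX dimer binds the E-box CACGTG and recruits coactivators to genes of cell growth and ribosome production. MXD proteins and MNT bind the same sites, also with MAX, and recruit SIN3 and histone deacetylases, so they oppose MYC. MXD1 is known from differentiating cells and MXD3 from proliferating cells in S phase, and MGA carries a T-box beside its MAX-binding domain and joins a Polycomb complex. In stratified epithelia MYC supports the proliferation of basal cells.

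Promoter windows from RefSeq (build GRCm38.p6), from 250 bases before to 50 bases after an annotated start, were matched by symbol for 9 of the 10 genes, in 11 windows. The gene without a window was Myc, so its promoter was not searched. They were searched on both strands for the E-box CACGTG, its variant CACGCG, the CCAAT box and the GC box GGGCGG, and overlapping matches each count. CACGTG stood in the windows of Max, Mnt and Mxd4, that is 3 of 11, and in 7.15% of all 32851 windows of the same length. CACGCG stood in those of Mycl and Mga and in 9.27% of all windows. GGGCGG stood in 10 of the 11, all but that of Max, against 35.66% of all windows, and CCAAT in those of Mxd1 and Mxd4, against 37.41%. GC content ran from 56.0% to 76.7% in the 11 windows, against a median of 52.7% over all windows. Several of the 11 windows belong to Mxi1, and some of these overlap, so this gene counts more than once. A match is a run of letters, not a measured binding site. The windows of 4 genes whose RNA is central below are shown 5′ to 3′ on the strand of the gene, with the searched letters in capitals.
Max, chr12:76962199-76962498, minus strand, with CACGTG at bases 248 to 253 of the window: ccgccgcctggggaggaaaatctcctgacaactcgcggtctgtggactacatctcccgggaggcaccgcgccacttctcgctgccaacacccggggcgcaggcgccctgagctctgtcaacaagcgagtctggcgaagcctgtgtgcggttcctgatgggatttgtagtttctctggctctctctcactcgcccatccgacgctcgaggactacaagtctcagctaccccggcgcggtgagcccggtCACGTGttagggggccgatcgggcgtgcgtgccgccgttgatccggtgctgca
Mycl, chr4:122995681-122995980, plus strand, with CACGCG at bases 231 to 236 and 1 GC box: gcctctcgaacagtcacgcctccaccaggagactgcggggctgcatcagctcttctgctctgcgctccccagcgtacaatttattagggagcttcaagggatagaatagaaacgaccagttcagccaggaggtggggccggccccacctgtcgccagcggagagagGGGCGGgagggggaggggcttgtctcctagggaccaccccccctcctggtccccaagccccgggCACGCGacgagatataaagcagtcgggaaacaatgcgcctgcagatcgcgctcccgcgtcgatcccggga
Mxd1, chr6:86669110-86669409, minus strand, with 4 CCAAT boxes and 6 GC boxes: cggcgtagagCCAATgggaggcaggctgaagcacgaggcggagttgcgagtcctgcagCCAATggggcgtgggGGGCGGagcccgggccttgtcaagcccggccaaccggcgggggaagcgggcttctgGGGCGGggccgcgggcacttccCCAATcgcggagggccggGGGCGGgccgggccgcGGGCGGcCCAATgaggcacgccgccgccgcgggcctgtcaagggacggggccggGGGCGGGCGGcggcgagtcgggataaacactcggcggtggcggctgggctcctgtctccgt
Mxd3, chr13:55329682-55329981, minus strand, with 8 GC boxes and neither form of the E-box: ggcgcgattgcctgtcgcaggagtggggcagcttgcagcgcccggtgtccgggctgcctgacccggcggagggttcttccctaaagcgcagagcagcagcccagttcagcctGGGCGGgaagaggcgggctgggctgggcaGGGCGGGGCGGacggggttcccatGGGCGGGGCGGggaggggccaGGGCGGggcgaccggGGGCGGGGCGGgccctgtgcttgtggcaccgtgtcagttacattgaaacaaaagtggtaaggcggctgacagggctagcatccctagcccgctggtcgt
The first pair, Max and Mycl, hold an E-box form beside their start, and the Mxd1 and Mxd3 windows hold GC boxes but neither E-box form that was searched. Other variants of the E-box were not searched.

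Library totals ran from 58113705 to 68571176 counts, and TMM factors, which scale libraries to each other, from 0.892 to 1.06. Where a gene had no read, counting error alone leaves room for 3 counts, which is 0.0421 to 0.0501 CPM (counts scaled to a common library size) depending on the library. The 18 epithelial markers summed to between 20700 and 23300 CPM in dKO MI-503, 20600 and 23000 in dKO DMSO, 18400 and 19400 in WT MI-503, and 12500 and 13700 in WT DMSO, most of it from keratin genes. Single markers moved apart with genotype. In dKO against WT under DMSO the basal genes Krt5 (log2 1.27), Krt14 (1.33) and Trp63 (1.14) rose, and Pparg, a factor of urothelial differentiation, fell (-1.38), and each kept its direction in MI-503 (0.48, 1.57, 1.27 and -2.49). Of the uroplakins, genes of the urothelial surface, Upk1b measured 97.5 to 144.2 CPM over the 8 libraries, while Upk1a, Upk2, Upk3a and Upk3b stayed below 3 CPM. Over the whole list, 9 of the 17 tested markers rose and 5 fell in dKO against WT in DMSO. Gata3 (0.45), Foxa1 (0.43), Krt7 (0.66) and Krt8 (0.48) were among those that rose. Krt18 (-0.66) and Krt19 (-0.47) were among those that fell. The list as a whole thus did not move 1 way from differentiated to basal genes. The part of these markers in the genotype differences of the members was not tested. All 6 immune markers together had at most 0.146 CPM and the 4 endothelial markers at most 0.195 CPM. The fibroblast genes Dcn, Lum, Col1a2 and Thy1 were at 0 counts, while 7 such genes summed to between 0.977 and 8.49 CPM, nearly all of it Pdgfra. Smooth muscle genes summed to between 7.55 and 7.60 CPM in dKO MI-503, 1.21 and 1.46 in dKO DMSO, 40.3 and 42.8 in WT MI-503, and 3.21 and 4.10 in WT DMSO, with Acta2 the main source and Cnn1 at or near 0. Pdgfra was higher in dKO and Acta2 with MI-503, and their part in the results was not tested. Both WT DMSO libraries stood apart in Hspa5, the main chaperone gene of the endoplasmic reticulum, with 14100 and 15200 CPM. It measured 1510 and 1460 CPM in dKO DMSO and 342 to 410 CPM in the MI-503 libraries. Kmt2c was lower in dKO libraries (log2 fold change -1.04 in DMSO, edgeR adjusted p = 2.60e-09), but it also fell with MI-503 in WT (-0.86, adjusted p = 1.21e-08). Kmt2d was higher in dKO than in WT under DMSO (0.43, adjusted p = 0.00166), and whole-gene counts do not show whether the deleted part is missing.

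Myc RNA was highest in untreated WT cells, lower in untreated dKO cells and lowest with MI-503, where the difference between genotypes did not pass. Max followed Myc closely. Mycl and Mxd1 were lower in dKO cells with and without drug, and Mxd3 was higher. Of the 10 genes, 9 had enough counts to be tested among 16921 genes with edgeR's quasi-likelihood test, and Mycn was too low. A gene is said to have risen or fallen where its Benjamini-Hochberg adjusted p over all genes was under 0.05, and a p that misses this threshold does not show that values were equal. In bulk RNA, fewer cells that express a gene and less RNA per cell cannot be told apart.

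Between dKO and WT in DMSO, 6 of the 9 fell and 1 rose, where 35.8% of all tested genes fell and 29.6% rose. Between dKO and WT in MI-503, 3 fell and 3 rose, where 28.5% of all genes fell and 26.6% rose. With MI-503 in dKO cells, 6 fell and 3 rose, where 26.5% of all genes fell and 29.1% rose. With MI-503 in WT cells, 8 fell and 1 rose, where 33.7% of all genes fell and 35.2% rose. The MI-503 effect was more positive in dKO than in WT cells for 6 of the 9 and more negative for 0, where 24.8% and 22.0% of all genes passed in these directions. These comparisons share libraries: each group stands in 2 of the pairwise comparisons, and all groups enter the difference of the drug effects. WT DMSO is the reference in both of its pairwise comparisons. So counts in different comparisons are not independent. With so many genes past the threshold, a passed test by itself sets no member apart.

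**Figure D1:**
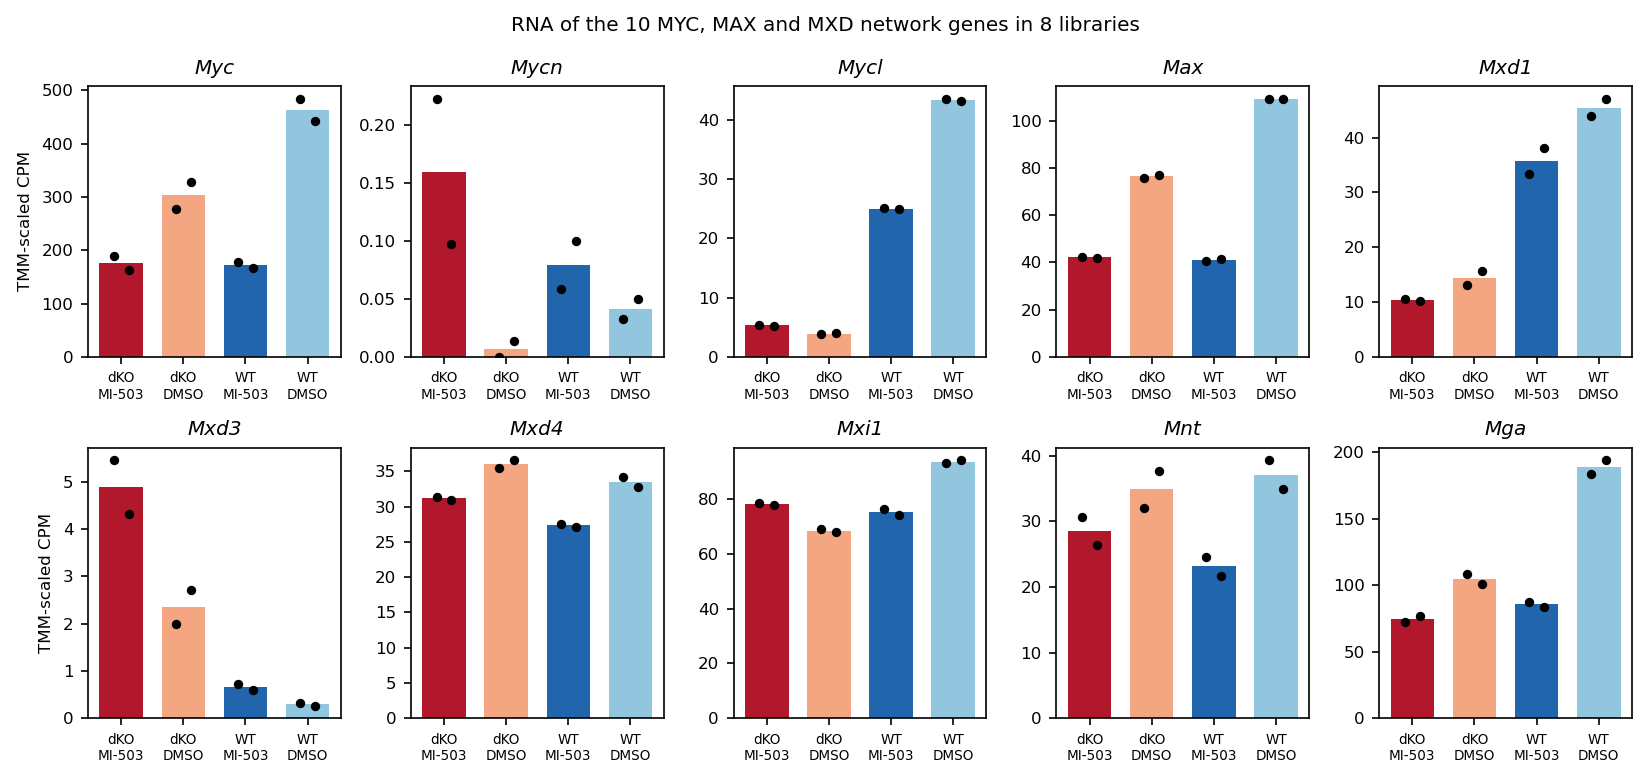
TMM-scaled CPM (linear axes from 0, a separate scale for each gene) of the 10 network genes. Bars are means of 2 libraries and points are single libraries. Myc and Max have the same order of groups, with Max at 40.6 to 42.4 CPM in the MI-503 libraries and at 109.1 and 109.3 CPM in WT DMSO, while Mycl and Mxd1 are low in both dKO groups and Mxd3 is high there.

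Myc, the broadly expressed member of the MYC genes (ENSMUSG00000022346, chromosome 15, 61985341 to 61990361), measured 189.7 and 163.6 CPM in dKO MI-503, 278 and 328 CPM in dKO DMSO, 177.5 and 166.3 CPM in WT MI-503, and 484 and 443 CPM in WT DMSO. Pairs of values are replicates 1 and 2 throughout. No dKO DMSO library reached a WT DMSO library, every MI-503 library lay below every DMSO library, and the MI-503 libraries of the genotypes overlapped. In DMSO, Myc fell in dKO against WT (log2 fold change -0.61, SE 0.08, adjusted p = 1.42e-05). With MI-503 it fell in dKO (-0.78, SE 0.08, adjusted p = 2.15e-06) and more in WT (-1.43, SE 0.08, adjusted p = 2.05e-09), and the difference of these effects passed (0.65, SE 0.12, adjusted p = 3.70e-04). Between dKO and WT in MI-503 the difference did not pass (0.04, SE 0.08, adjusted p = 0.716).

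Mycl, a MYC paralog known from lung tumours and dendritic cells (ENSMUSG00000028654, chromosome 4, 122995588 to 123002490), measured 5.33 and 5.29 CPM in dKO MI-503, 3.93 and 3.94 CPM in dKO DMSO, 25.05 and 24.98 CPM in WT MI-503, and 43.5 and 43.2 CPM in WT DMSO. Its 4 groups did not overlap, and both dKO groups lay far below both WT groups. It was far lower in dKO than in WT in DMSO (a log2 fold change of -3.46 with SE 0.07, adjusted p = 1.66e-13), the largest fall among the 9 tested genes in that comparison, and 4.71-fold lower in MI-503 (-2.24, SE 0.07, adjusted p = 1.08e-11). The drug moved it in opposite directions: it rose in dKO cells (0.43, SE 0.08, adjusted p = 4.87e-04) and fell in WT cells (-0.79, SE 0.06, adjusted p = 4.98e-08). The difference of these effects was 1.23 (SE 0.10, adjusted p = 5.38e-07). The RNA in dKO cells stayed low in both treatments, with 359 and 326 counts in dKO MI-503 and 259 and 281 counts in dKO DMSO.

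Mycn, the paralog of embryonic and neural cells (ENSMUSG00000037169, chromosome 12, 12936093 to 12941836), was almost silent. It had 15 and 6 counts in dKO MI-503, 0 and 1 in dKO DMSO, 4 and 6 in WT MI-503, and 2 and 3 in WT DMSO, at most 0.223 CPM. The 21 counts of dKO MI-503 against 1 count in dKO DMSO give a ratio of 22.3 after scaling (95% exact counting interval 3.59 to 924), and 15 of the 21 came from 1 library. The filter left Mycn out of the tests. Without it, edgeR gave an adjusted p of 0.0044 for MI-503 in dKO cells and 0.337 to 0.562 in the other pairwise comparisons.

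Max, the obligate partner of the network (ENSMUSG00000059436, chromosome 12, 76937269 to 76962323), measured 42.4 and 41.8 CPM in dKO MI-503, 75.9 and 77.1 CPM in dKO DMSO, 40.6 and 41.5 CPM in WT MI-503, and 109.3 and 109.1 CPM in WT DMSO. Replicates lay close together, and the DMSO groups stood apart from each other and above the MI-503 groups, as for Myc. Max was lower in dKO than in WT under DMSO (a log2 fold change of -0.51 with SE 0.05, adjusted p = 3.96e-07). With MI-503 it fell in dKO (-0.86, SE 0.05, adjusted p = 5.45e-09) and in WT (-1.41, SE 0.05, adjusted p = 1.38e-11), with a difference of 0.55 (SE 0.07, adjusted p = 1.89e-05). In MI-503 the genotypes did not differ by the test (0.04, SE 0.05, adjusted p = 0.564).

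The count of Myc reads per Max read compares libraries without any scaling, though not the abundance of the 2 RNAs, since their lengths differ. It was 4.48 and 3.91 in dKO MI-503, 3.66 and 4.26 in dKO DMSO, 4.37 and 4.00 in WT MI-503, and 4.43 and 4.06 in WT DMSO. All groups overlapped, and the highest of the 8 libraries was 1.22 times the lowest, while Myc itself spanned 163.6 to 484 CPM. The ratio of Mga to Max ranged more, from 1.31 to 2.15, and that of Mycl to Myc from 0.0120 to 0.150. Against Myc, the antagonists given here were all higher with MI-503 within each genotype, but they differed in how the genotypes stood. Mxi1 reads per Myc read were 0.415 and 0.475 in dKO MI-503, 0.248 and 0.207 in dKO DMSO, 0.431 and 0.446 in WT MI-503, and 0.192 and 0.213 in WT DMSO. MI-503 libraries were thus all above DMSO libraries in this ratio, and the genotypes overlapped within each treatment. Mxd4 reads per Myc read were 0.165 and 0.189 in dKO MI-503 and 0.128 and 0.111 in dKO DMSO. In WT they were 0.155 and 0.163 in MI-503 and 0.0706 and 0.0742 in DMSO. MI-503 libraries were again all above DMSO libraries, but dKO lay above WT within each treatment. Mnt reads per Myc read had the same order of groups as Mxd4. They were 0.162 and 0.161 in dKO MI-503 and 0.115 and 0.115 in dKO DMSO. In WT they were 0.138 and 0.131 in MI-503 and 0.0811 and 0.0789 in DMSO. Mxd1 reads per Myc read were 0.0558 and 0.0624 in dKO MI-503 and 0.0474 and 0.0478 in dKO DMSO. In WT they were 0.188 and 0.229 in MI-503 and 0.0907 and 0.106 in DMSO. For Mxd1 both dKO groups thus lay below both WT groups, with MI-503 above DMSO within each genotype.

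**Figure D2:**
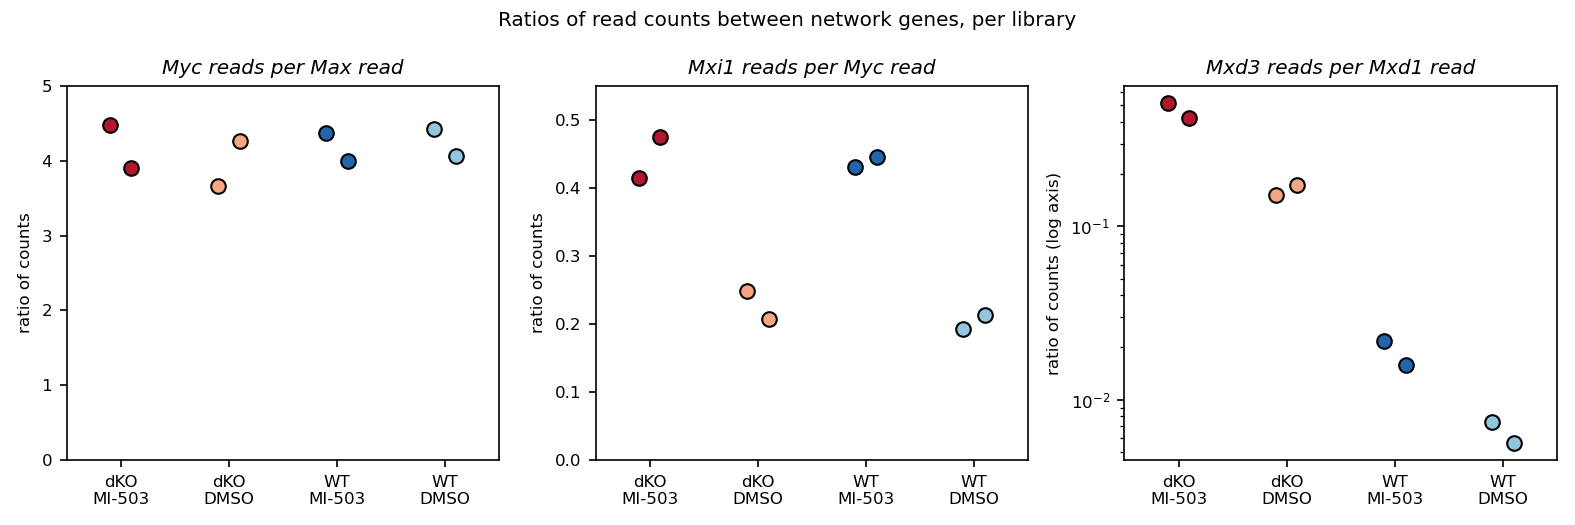
Ratios of read counts between pairs of network genes, each point 1 library, with groups on the horizontal axis. Myc reads per Max read stay between 3.66 and 4.48, Mxi1 reads per Myc read are higher with MI-503 in both genotypes, and Mxd3 reads per Mxd1 read, on a log axis, run from 0.00562 in WT DMSO to 0.515 in dKO MI-503.

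Mxd1, the MXD gene of differentiating epithelium (ENSMUSG00000001156, chromosome 6, 86647044 to 86669234), measured 10.6 and 10.2 CPM in dKO MI-503, 13.2 and 15.7 CPM in dKO DMSO, 33.4 and 38.1 CPM in WT MI-503, and 43.9 and 47.1 CPM in WT DMSO. No groups overlapped, and genotype separated the libraries more than the drug. Mxd1 was 3.15-fold lower in dKO than in WT in DMSO (a log2 fold change of -1.65 with SE 0.09, adjusted p = 1.52e-09) and 3.43-fold lower in MI-503 (-1.78, SE 0.09, adjusted p = 1.51e-09). The drug was followed by smaller falls in dKO (-0.47, SE 0.09, adjusted p = 7.19e-04) and in WT (-0.35, SE 0.08, adjusted p = 0.00221). The fall in WT ended as a call with library size alone as scaling (-0.17, edgeR adjusted p = 0.088).

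Mxd3, the MXD gene of cycling cells (ENSMUSG00000021485, chromosome 13, 55325170 to 55329900), went the other way. It measured 5.45 and 4.31 CPM in dKO MI-503, 2.00 and 2.72 CPM in dKO DMSO, 0.731 and 0.602 CPM in WT MI-503, and 0.326 and 0.265 CPM in WT DMSO. The 4 groups did not overlap. It was higher in dKO than in WT under DMSO (a log2 fold change of 2.99 with SE 0.27, adjusted p = 2.55e-07) and in MI-503 (2.86, SE 0.21, adjusted p = 5.96e-08). With MI-503 it rose in dKO (1.05, SE 0.17, adjusted p = 1.59e-04) and in WT (1.18, SE 0.33, adjusted p = 0.00573), while the drug effects did not differ by the test (-0.13, SE 0.37, adjusted p = 0.81). WT DMSO libraries held only 20 and 16 Mxd3 counts, so the error of the fold changes was the largest of the 9 genes. The RefSeq span of Mxd3 overlaps that of Prelid1, and the strand setting of the counts is not given, and Prelid1 measured 226 to 240 CPM in all 8 libraries. Mxd3 reads per Mxd1 read were 0.515 and 0.422 in dKO MI-503, 0.152 and 0.173 in dKO DMSO, 0.0219 and 0.0158 in WT MI-503, and 0.00742 and 0.00562 in WT DMSO.

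The other MXD genes moved little. Mxi1, a widely expressed MAX partner of the MXD family (ENSMUSG00000025025, chromosome 19, 53310128 to 53373293), measured 78.7 and 77.7 CPM in dKO MI-503, 69.0 and 67.9 CPM in dKO DMSO, 76.5 and 74.2 CPM in WT MI-503, and 93.0 and 94.1 CPM in WT DMSO. WT DMSO was the highest group and dKO DMSO the lowest, with both MI-503 groups between them. Like Mycl, Mxi1 moved in opposite directions with the drug, up in dKO (log2 fold change 0.19, SE 0.05, adjusted p = 0.00345) and down in WT (-0.31, SE 0.05, adjusted p = 4.04e-05), with a difference of 0.50 (SE 0.07, adjusted p = 3.17e-05). It was lower in dKO than in WT under DMSO (-0.45, SE 0.05, adjusted p = 1.35e-06). In MI-503 the difference did not pass (0.05, SE 0.05, adjusted p = 0.371) except with library size alone (0.12, adjusted p = 0.0366).

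Mxd4, an MXD gene expressed in many resting and differentiated tissues (ENSMUSG00000037235, chromosome 5, 34176580 to 34187710), measured 31.4 and 30.9 CPM in dKO MI-503, 35.5 and 36.5 CPM in dKO DMSO, 27.5 and 27.1 CPM in WT MI-503, and 34.2 and 32.8 CPM in WT DMSO. It fell with MI-503 in dKO (log2 fold change -0.21, SE 0.06, adjusted p = 0.00686) and also in WT (-0.29, SE 0.06, adjusted p = 4.83e-04), where the call ended with library size alone (-0.12). Between genotypes it rose in MI-503 (0.19, SE 0.06, adjusted p = 0.0144) but did not pass in DMSO (0.11, SE 0.06, adjusted p = 0.127). The DMSO comparison sits at the threshold: it passed with RLE size factors (0.14, adjusted p = 0.0451), library size alone (0.33), no filter (0.20), a stricter filter (0.20) and only the groups compared (0.18). The call in MI-503 ended without WT MI-503 replicate 1 or 2 or without dKO MI-503 replicate 1.

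Mnt, a constitutive antagonist of MYC (ENSMUSG00000000282, chromosome 11, 74830806 to 74845725), measured 30.7 and 26.4 CPM in dKO MI-503, 32.0 and 37.7 CPM in dKO DMSO, 24.5 and 21.7 CPM in WT MI-503, and 39.3 and 34.9 CPM in WT DMSO. The DMSO groups of the genotypes overlapped (log2 fold change -0.09, SE 0.10, adjusted p = 0.43). It fell with MI-503 in WT (-0.68, SE 0.10, adjusted p = 2.70e-05). The smaller fall in dKO (-0.29, SE 0.10, adjusted p = 0.0217) ended as a call without replicate 2 of dKO DMSO (-0.16) or replicate 2 of dKO MI-503 (-0.18). In MI-503 it was higher in dKO than in WT (0.30, SE 0.10, adjusted p = 0.0187), a call that ended without WT MI-503 replicate 2 (0.22) or dKO MI-503 replicate 1 (0.19).

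Mga, which encodes the large factor with both a T-box and a MAX-binding domain (ENSMUSG00000033943, chromosome 2, 119872503 to 119970129), measured 72.7 and 76.9 CPM in dKO MI-503, 108.6 and 100.9 CPM in dKO DMSO, 87.4 and 83.7 CPM in WT MI-503, and 183.7 and 193.8 CPM in WT DMSO. The groups did not overlap, and WT DMSO stood far above the other 3. Mga was lower in dKO than in WT under DMSO (a log2 fold change of -0.85 with SE 0.05, adjusted p = 8.01e-09), with MI-503 in dKO (-0.49, SE 0.05, adjusted p = 4.11e-06) and with MI-503 in WT (-1.14, SE 0.05, adjusted p = 2.86e-10). The drug effects differed by 0.66 (SE 0.08, adjusted p = 1.04e-05). In MI-503 the fall in dKO against WT was small (-0.19, SE 0.05, adjusted p = 0.00835) and ended as a call with library size alone (-0.12) and without WT MI-503 replicate 1 (-0.16) or dKO MI-503 replicate 1 (-0.15).

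**Figure D3:**
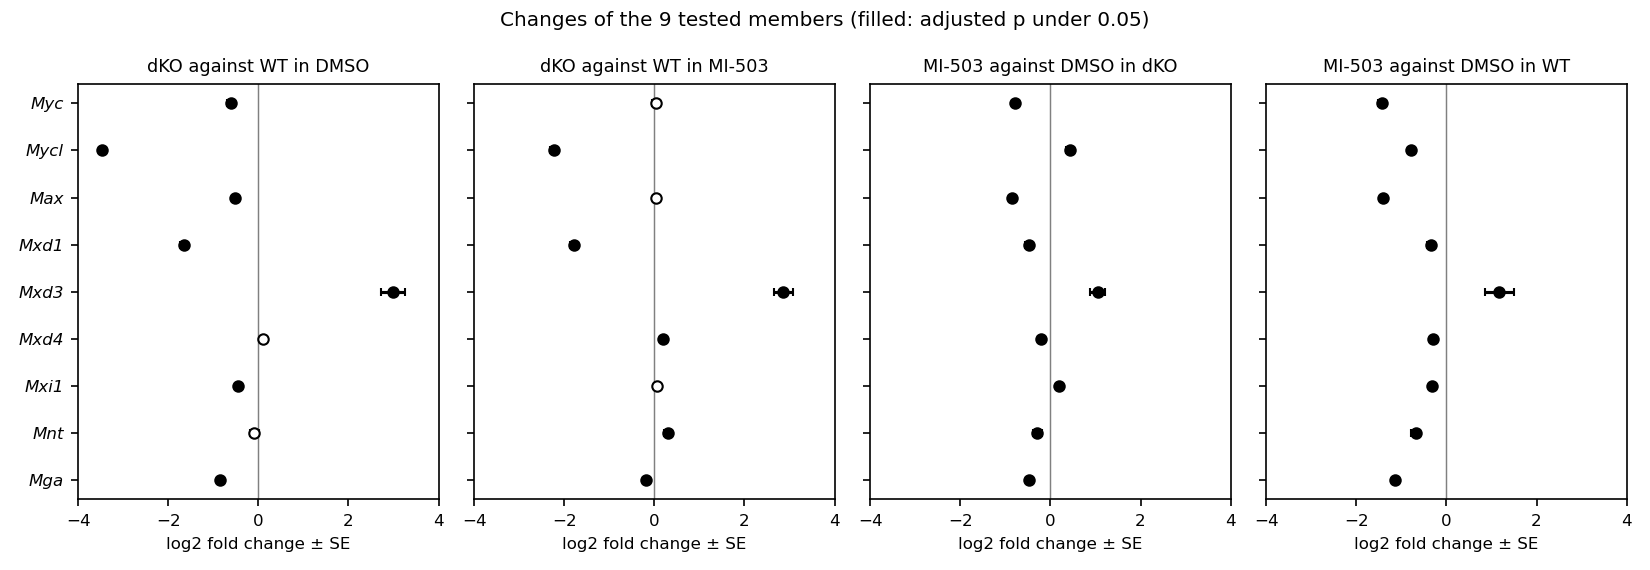
Log2 fold changes of the 9 tested members in the 4 pairwise comparisons, as points with standard errors (edgeR, 2 libraries a group), filled where the adjusted p was under 0.05. Myc and Max lie at 0.04 between dKO and WT in MI-503, whereas Mycl, Mxd1 and Mxd3 stay at -2.24, -1.78 and 2.86.

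With the drug in both genotypes, the members differed in how far dKO and WT stood apart. Myc, Max and Mxi1 no longer passed between dKO and WT in MI-503, and Mga differed by -0.19 on the log2 scale there and by -0.85 in DMSO. Mycl, Mxd1 and Mxd3 kept large differences in MI-503. For Myc, Mycl, Max, Mxi1, Mnt and Mga the difference of the drug effects passed, and for Mxd1 (-0.13, SE 0.13, adjusted p = 0.455), Mxd3 and Mxd4 (0.08, SE 0.08, adjusted p = 0.446) it did not. That of Mnt (0.39, SE 0.14, adjusted p = 0.0316) ended as a call without any 1 of 4 libraries, WT DMSO replicate 1 (0.30), WT MI-503 replicate 2 (0.31), replicate 1 of dKO DMSO (0.28) or of dKO MI-503 (0.28).

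The likeness of patterns was measured as the root-mean-square difference of mean-centred log2 CPM over the 8 libraries, among 9709 genes with a mean of at least 5 CPM. The 3 genes nearest to Myc were Ube2g2 (0.067), Tmem11 (0.071) and Fam193a (0.091), and Max was next after them at 0.09. Genes close to Max included Got1 (0.052) and Krr1 (0.053), and 35 genes were nearer to Max than Myc was. For Mycl, the nearest were Icam1 (0.145), Hook1 (0.170) and Styk1 (0.216), each low in both dKO groups. Mga lay 0.22 from Myc and from Max, Mxd1 0.82 from Myc, and Mxd3 1.91. These are descriptions over 8 libraries in 4 groups, which many genes share.

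The wider pathway was described by 7 gene lists, whose counts are read beside the shares of all genes given above. The median of all tested genes lay at -0.05 for dKO against WT in DMSO, 0.01 in MI-503, and 0.03 for MI-503 in each genotype. The MLX branch is the parallel network in which MLX and its partners sense glucose metabolites. Of its 5 genes, 1 rose and 3 fell in dKO against WT in DMSO, 0 rose and 3 fell in MI-503, 1 rose and 3 fell with MI-503 in dKO, and 2 rose and 3 fell with MI-503 in WT. Txnip and Arrdc4, its classic targets, which encode arrestin-like brakes on glucose uptake, fell in all 4 comparisons. Txnip measured 107.7 ± 7.45 CPM in dKO MI-503, 799 ± 23.1 in dKO DMSO, 241.5 ± 12.8 in WT MI-503, and 1389 ± 2.34 in WT DMSO (mean ± SD, n = 2 each). It fell with MI-503 in dKO (log2 fold change -2.89, adjusted p = 5.46e-13) and in WT (-2.52, adjusted p = 3.73e-13). Arrdc4 measured 22.2 ± 0.309 CPM in dKO MI-503, 96.0 ± 0.824 in dKO DMSO, 70.3 ± 1.82 in WT MI-503 and 323 ± 7.35 in WT DMSO. Mlx itself rose in dKO against WT in DMSO (0.65, adjusted p = 6.91e-07) and with MI-503 in WT (0.60, adjusted p = 1.33e-06). It did not pass in the other pairwise comparisons, and its drug effects differed between genotypes (-0.51).

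Genes of MYC coactivators moved by less, within 1.06 on the log2 scale. Of 12, 6 rose and 4 fell in dKO against WT in DMSO, 5 rose and 3 fell in MI-503, 4 rose and 2 fell with MI-503 in dKO, and 6 rose and 3 fell with MI-503 in WT. Hcfc1, a scaffold that binds MYC, rose in all 4, with 266 ± 9.76 CPM in dKO MI-503, 184.7 ± 7.37 in dKO DMSO and 203.5 ± 1.91 in WT MI-503 and 108.1 ± 5.46 in WT DMSO. Wdr5, which holds MYC on chromatin and is also a core subunit of KMT2 complexes, fell with MI-503 in dKO (-0.27, adjusted p = 2.97e-04) and in WT (-0.58, adjusted p = 9.47e-08). Zbtb17, which encodes MIZ1, the factor through which MYC represses genes, rose with MI-503 in dKO (0.47, adjusted p = 0.00142) and in WT (1.06, adjusted p = 8.34e-07).

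Of 14 genes that act on the stability of MYC protein, 4 rose and 7 fell in dKO against WT in DMSO, 6 rose and 3 fell in MI-503, 7 rose and 6 fell with MI-503 in dKO, and 3 rose and 7 fell with MI-503 in WT. With library size alone, 2 fell in dKO against WT in DMSO and 6 rose with MI-503 in WT. Usp36, a nucleolar deubiquitinase of MYC, fell with MI-503 in dKO (-1.08, adjusted p = 7.64e-08) and in WT (-1.26, adjusted p = 6.10e-09). Huwe1, which encodes a ubiquitin ligase, measured 713 ± 22.3 CPM in dKO MI-503, 873 ± 31.1 in dKO DMSO, 823 ± 10.9 in WT MI-503 and 1554 ± 30.2 in WT DMSO, and fell in all 4 comparisons. Skp2, a ligase subunit of proliferating cells, and the mitotic kinase gene Plk1 rose in all 4, Plk1 by 0.79 with MI-503 in dKO (adjusted p = 3.60e-06). The rise of Plk1 in dKO against WT in DMSO (0.32) ended as a call without WT DMSO replicate 2 (0.21) or dKO DMSO replicate 2 (0.22).

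Of 11 genes of the SIN3 and histone deacetylase corepressor that MXD proteins and MNT recruit, 5 rose and 4 fell in dKO against WT in each treatment, 5 rose and 3 fell with MI-503 in dKO, and 2 rose and 5 fell with MI-503 in WT. Sap30, a linker subunit, rose in dKO against WT in DMSO (0.51, adjusted p = 3.39e-06) and fell with MI-503 in dKO (-0.75, adjusted p = 1.15e-07) and WT (-1.01, adjusted p = 3.06e-09). Rbbp7, a histone-binding subunit, fell in dKO against WT in DMSO (-0.79, adjusted p = 9.69e-09). Ing1, which reads methylated H3K4, rose with MI-503 in dKO (0.23, adjusted p = 0.00484; 0.17 and no longer a call without dKO MI-503 replicate 1) and fell in WT (-0.57, adjusted p = 1.10e-06), with a difference of 0.79.

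Of 9 genes of the Polycomb complex that contains MGA, 3 rose and 5 fell in dKO against WT in DMSO, 4 rose and 1 fell in MI-503, 2 rose and 2 fell with MI-503 in dKO, and 3 rose and 5 fell with MI-503 in WT. Pcgf6, the subunit that defines this complex, measured 34.4 ± 0.18 CPM in dKO MI-503, 52.9 ± 1.92 in dKO DMSO, 32.8 ± 1.31 in WT MI-503 and 72.1 ± 2.49 in WT DMSO. Like Myc and Max, it did not pass between the genotypes in MI-503 (0.07, adjusted p = 0.353). The same held for Rnf2, its ubiquitin ligase (0.07, adjusted p = 0.294), which fell with MI-503 in WT by 1.26 on the log2 scale (adjusted p = 1.54e-10), whereas Ring1, the paralog of Rnf2, rose in dKO against WT in DMSO (0.85, adjusted p = 2.18e-05).

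The 40 genes known to be activated by MYC did not move 1 way. In dKO against WT in DMSO 17 rose and 19 fell (median -0.07), and in MI-503 18 rose and 7 fell (median 0.12). With MI-503, 16 rose and 15 fell in dKO (median 0.01), and 14 rose and 22 fell in WT (median -0.28). The mitochondrial chaperone genes Hspd1 and Hspe1 fell most between genotypes in DMSO, Hspd1 with 768 ± 37.9 CPM in dKO DMSO and 3095 ± 289.5 CPM in WT DMSO (-2.01, adjusted p = 7.74e-12). Hspd1 measured 769 ± 11.8 CPM in dKO MI-503 and 774 ± 21.6 CPM in WT MI-503, so it was high in the WT DMSO libraries alone. Hspa5 was also highest there, but its dKO DMSO libraries, at 1510 and 1460 CPM, lay above the MI-503 libraries at 342 to 410 CPM. The genes of ribosome production in the list split in dKO against WT in DMSO. Bop1 (1.47), Rrp12 (1.25), Nop56 (0.99), Rrp9 (0.40), Polr1b (0.40), Nolc1 (0.20) and Ddx21 (0.15) rose, the calls of Rrp9 and Ddx21 ending without single libraries (0.26 for Rrp9 without WT DMSO replicate 2, 0.29 without dKO DMSO replicate 2, and 0.12 for Ddx21 without dKO DMSO replicate 1). Pes1 (-0.75) and Wdr12 (-0.47), whose proteins form a complex with BOP1, fell, as did Nop16 (-0.44), Ncl (-0.40), Fbl (-0.35), Mybbp1a (-0.28), Gnl3 (-0.21) and Npm1 (-0.19), although with library size alone Gnl3 (0.02) and Npm1 (0.04) turned direction and Fbl (-0.12) and Mybbp1a (-0.06) were no longer called. The calls of Gnl3 and Npm1 also ended under other filters and without replicate 2 of WT DMSO (-0.17 and -0.14) or of dKO DMSO (-0.15 and -0.12). With MI-503 most of these genes fell. Nop56 and Rrp12 fell in dKO (-0.96 and -1.16) and in WT (-0.71 and -0.70). Lower in both were also Ncl (-0.36 in dKO, -0.88 in WT), Ddx21 (-0.52, -0.60), Mybbp1a (-0.46, -0.78) and Wdr12 (-0.25, -0.78). So were Gnl3 (-0.20, -0.64), Nop16 (-0.16, -0.52) and Fbl (-0.15, -0.27). Pes1 (-0.73) and Rrp9 (-0.42) fell in WT alone, and Npm1 and Polr1b passed in neither. Bop1 fell in dKO (-0.41) and rose in WT (0.58), and Nolc1 rose in dKO (0.12) and fell in WT (-0.29). Tert, the telomerase gene and a textbook MYC target, rose with MI-503 to 15.6 ± 0.678 CPM in dKO MI-503, against 3.90 ± 0.36 CPM in dKO DMSO (2.00, adjusted p = 3.59e-09), and to 10.7 ± 0.62 CPM in WT MI-503, against 2.21 ± 0.338 CPM in WT DMSO (2.27, adjusted p = 9.23e-10). Its direction with the drug was thus the opposite of that of Myc.

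Of 10 genes known to be repressed by MYC, 4 rose and 6 fell in dKO against WT in DMSO, 4 rose and 5 fell in MI-503, 3 rose and 4 fell with MI-503 in dKO, and 4 rose and 4 fell with MI-503 in WT. Gadd45a, a stress-induced brake on growth, and Ndrg1, a gene of stress and differentiation, fell with MI-503 in dKO (-2.66 and -2.35) and in WT (Gadd45a by -3.13), the direction in which Myc moved. The cell-cycle inhibitor gene Cdkn1a fell in dKO against WT in DMSO (-1.61, adjusted p = 4.24e-12) and with MI-503 in WT (-1.34, adjusted p = 1.62e-11), but rose with MI-503 in dKO (0.51, adjusted p = 6.32e-07). Ndrg2, a differentiation gene, rose with MI-503 in both genotypes (3.65 in dKO and 2.63 in WT), and Gas1, a growth arrest gene, rose in dKO against WT in DMSO (2.39) and in MI-503 (2.05).

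**Figure D4:**
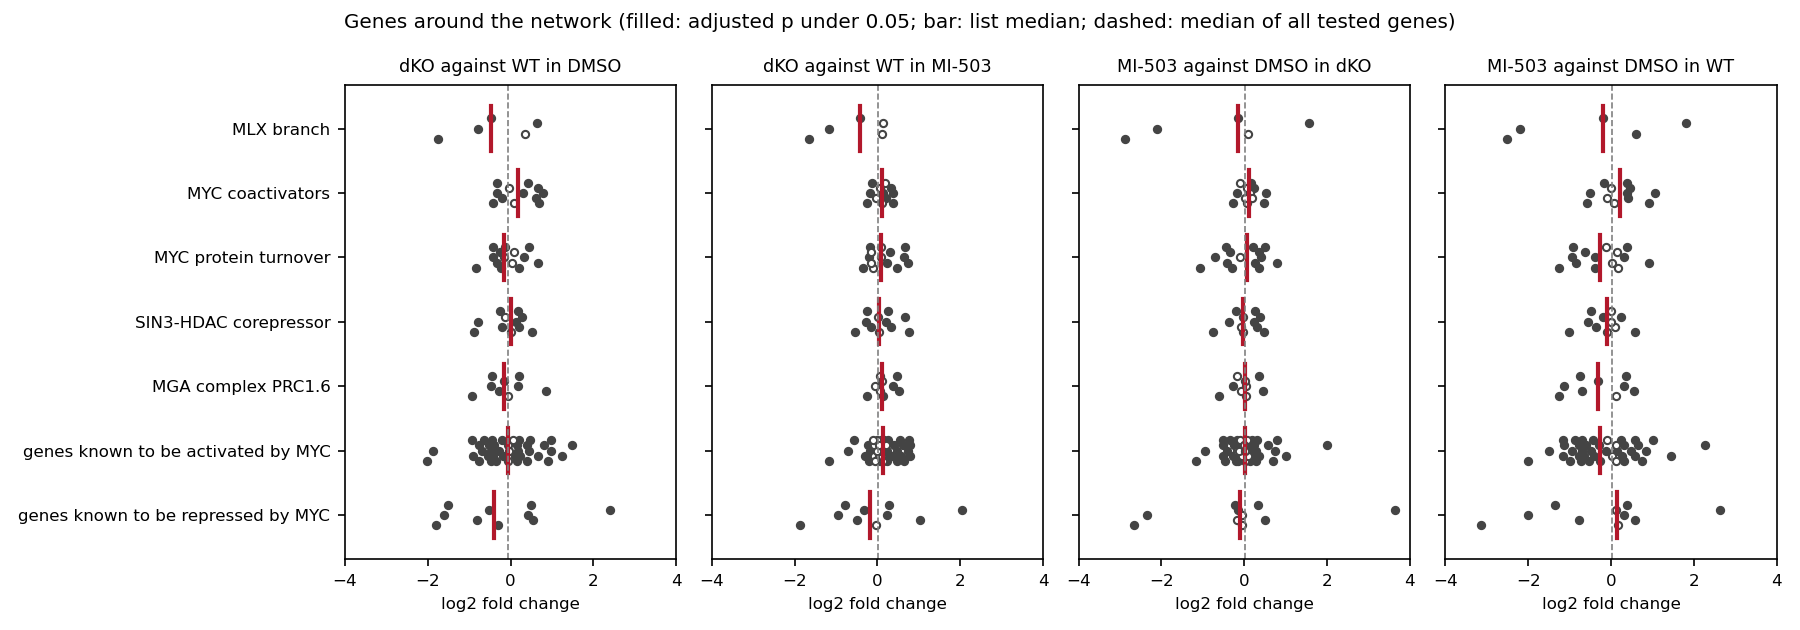
Log2 fold changes of the genes of 7 lists around the network in the 4 pairwise comparisons. Each point is a gene, filled where the adjusted p was under 0.05, red bars are list medians and the dashed line is the median of all 16921 tested genes. Genes known to be activated by MYC spread to both sides, with a median of -0.28 for MI-503 against DMSO in WT and 0.12 for dKO against WT in MI-503.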

How the data were processed

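PolyA RNA was sequenced from 8 libraries. The authors deposited a table of raw counts for Ensembl genes, not normalized. The submitters' processing notes name STAR and Bowtie2, as well as MACS3, SICER and deepTools, with GRCm38 or mm10 as genome, for the series as a whole. Not given in the sources used here: the counting program, its strand mode and its annotation. Overlapping genes are therefore uncertain. A further 1 row with no identifier was left out.

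The fit used edgeR 4.0.16 in R 4.3.3. Genes were kept by filterByExpr on groups (count 10, total 15), libraries were scaled by TMM, and quasi-likelihood F tests were run on a model of group means over 8 libraries, with 4 residual degrees of freedom. Two-sided p-values were adjusted by Benjamini-Hochberg over 16921 genes, at 0.05. The SE was taken as the size of the log2 fold change divided by the root of F, with a prior count of 0.125. A permutation of 2 against 2 libraries has a smallest exact p of 0.33. The fit was tested on simulated data. Alternatives were DESeq2 1.42.0, other scalings and filters, a replicate block, only the groups compared, and each library left out. Exon lengths were not used here, so levels are not compared between genes.

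The members are defined by gene name, but this family and the gene lists were chosen with earlier results of these data known. Named genes are all 10 members, Kmt2c and Kmt2d, and genes from a rule: per list and comparison, up to 2 genes in each direction with the largest change among those past the threshold at a mean of at least 5 CPM, of which a part is described. The rule also takes the 3 genes nearest in pattern to each tested member, of which those of Myc and Mycl and a part of those of Max are given, and 1 gene is not reported here. Hspa5, Prelid1, Odc1, Srm, the singly named marker genes and those genes of ribosome production that the rule does not take were chosen after their values were seen.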

Additional observations from a re-analysis of the deposited data

Results flagged for a closer look

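For 6 of the 9 tested network genes, the MI-503 effect in dKO cells differed from that in WT cells by the test of the difference itself (edgeR, adjusted over all genes). Of all 16921 tested genes, 46.8% passed this test, so passing it does not set these genes apart. The difference on the log2 scale, dKO minus WT, was 0.65 for Myc, 1.23 for Mycl, 0.55 for Max, 0.50 for Mxi1, 0.39 for Mnt and 0.66 for Mga. Mycl and Mxi1 rose with the drug in dKO cells and fell in WT cells, and the other 4 fell in both and fell more in WT cells. WT DMSO libraries, in which Hspa5 was 14100 and 15200 CPM, are the reference of the WT effect, and their part in the difference was not tested.

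The same test passed for genes of the lists. Only a part of the genes that passed are given here, so they do not show how often list genes passed. In the MLX branch the difference was -0.51 for Mlx and -0.37 for Txnip. Among coactivators it was 0.31 for Wdr5, -0.38 for Hcfc1 and -0.58 for Zbtb17. Of the genes of MYC stability, Huwe1 differed by 0.63 and Plk1 by 0.41. Of the corepressor genes, Sap30 differed by 0.26, Rbbp7 by 0.23 and Ing1 by 0.79. Of the MGA complex, Pcgf6 differed by 0.52, Rnf2 by 1.00 and Ring1 by -0.48. Among genes known to be activated by MYC, the difference was -0.25 for Nop56, -0.46 for Rrp12, -0.99 for Bop1, 2.00 for Hspd1 and 1.77 for Hspe1. Among genes known to be repressed by MYC, it was 1.85 for Cdkn1a, 0.48 for Gadd45a, -0.35 for Ndrg1 and 1.01 for Ndrg2.
The differences of Plk1, Sap30, Rbbp7 and Ring1 each ended as a call without single libraries, and those of Wdr5, Plk1, Sap30 and Rbbp7 with library size alone (0.15, 0.25, 0.10 and 0.08).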

How the results depend on the processing

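Across the alternatives, 628 log2 fold changes of members kept their direction and side of the threshold, 18 lost the call, 6 gained it and 14 turned direction, all 14 from values that had not passed. With library size alone, the median of all genes shifted by 0.23 for dKO against WT in DMSO, 0.17 for MI-503 in WT and -0.16 for the difference of drug effects. Higher calls then made up 61.7% of calls in dKO against WT in DMSO (45.3% with TMM) and 37.2% in the difference of drug effects (52.9% with TMM). In that scaling Mnt was 0.14 in dKO against WT in DMSO and the Mxd4 difference was -0.08. Without a filter these were 0.0046 and -0.01, and with a stricter filter 0.0036 and -0.01.

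Leaving out 1 library at a time, members called between dKO and WT in MI-503 ranged from 3 to 6, with 3 without dKO MI-503 replicate 1. Mnt in dKO against WT in DMSO ranged from -0.21 to 0.02, Myc between genotypes in MI-503 from -0.07 to 0.15, and the drug effect differences of Mxd1 from -0.24 to 0.0049 and of Mxd3 from -0.33 to 0.11. The cause was not tested. Correlations between groups of the replicate deviations, over all 16921 genes, ran from -0.089 to 0.059. They show no pairing by replicate number but cannot exclude one, since genes with few counts weigh as much as others. With a replicate block, 10798 genes passed for dKO against WT in DMSO, against 11070 without it, and the counts of members called were equal in each comparison. Depth limits Mycn and, in WT, Mxd3.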
